A study of Mus musculus with 6 samples.

Results

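The genes described here are 7 proteases reported to cleave collagen XVII (Adam8, Adam9, Adam10, Adam15, Adam17, Mmp2 and Mmp9) and 3 tissue inhibitors of metalloproteinases (Timp1, Timp2 and Timp3), 10 of the 21368 genes that the array measured by at least 1 probe named through a RefSeq accession. They were measured by 12 probes among 55681. RNA came from the whole epidermis of mouse tail skin, peeled off the dermis after EDTA, and was amplified, labelled with Cy3 and put on 1-colour Agilent arrays. The aged samples came from wild-type C57BL/6 mice, replicate 1 at 22 months and replicates 2 and 3 at 25 months, and the 3 young samples from wild-type C57BL/6 mice at 8 weeks. No sex is labelled, and the labels do not say that each sample was a separate animal, so p-values measure only the spread between these samples.

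Collagen XVII is a transmembrane collagen of the hemidesmosome, the junction that fastens basal keratinocytes to the basement membrane. Its extracellular part is cut off near the cell surface by metalloproteinases, a step called ectodomain shedding, and work in cultured keratinocytes named ADAM9, ADAM10 and ADAM17 as enzymes that can do so. Gelatinases such as MMP9 cleave it in inflamed skin. TIMPs bind the catalytic site of metalloproteinases, and TIMP3 is the family member with the widest action on ADAM proteases. The arrays measured RNA, not protease activity or shed collagen.

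Values are log2 of the processed spot signal, set against the 75th percentile of each array, so that 0 is the 75th percentile and lower signals are negative. The lowest signal well above background lay between -4.40 and -4.89 on the aged arrays and between -4.65 and -4.97 on the young arrays. Levels of different probes are not compared with each other, since probes differ in brightness. The 75th percentile lay between 230.2 and 300.3 intensity units over the 6 arrays and no spot was saturated. All 10 markers fixed for interfollicular keratinocytes, Krt5, Krt14, Krt1 and Krt10 among them, were well above background on all 6 arrays. The summed linear signal of these markers, in multiples of the 75th percentile, was 2509 to 2807 on aged and 2495 to 2618 on young arrays. Replicate 1 of both groups carried the Y-linked transcripts Ddx3y and Eif2s3y, which were not well above background on the other 4 arrays.

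In aged epidermis Mmp2 transcript averaged 1.75-fold and Timp2 transcript 0.611-fold of the young level. Neither gene's groups overlapped, but neither difference passed the threshold after adjustment over all features. Adam8 was higher on 2 of 3 aged arrays, and Timp3 was a little lower on all 3. The ADAM genes most often named as sheddases, Adam9, Adam10 and Adam17, differed by at most 0.25 on the log2 scale by their brightest probes, and Mmp9 transcript was not detected. Of the 10 genes 9 were tested, and 0 passed the limma adjusted p threshold of 0.05, which 0.0778% of the 14134 tested genes passed (11 genes, or 0 with the replicate number as a block). At an unadjusted p under 0.05 there were 3 of the 9, against 17.7% of all tested genes. These were Adam8 and Mmp2 on the higher side, where 11.4% of tested genes lay, and Timp2 on the lower side, where 6.3% lay. With the replicate block they were 2, Mmp2 and Timp2. Groups did not overlap for 4 of the 9, against 27% of all tested genes: Adam9 and Mmp2 were higher, where the share of tested genes was 19.5%, and Timp2 and Timp3 lower, where it was 7.48%. The median difference of the 9 was 0.11 log2 units, beside 0.093 over all tested genes. On the slide the aged arrays shared a row with young replicate 3 alone, and with the row as a block Mmp2 differed by 0.76, Timp2 by -0.73 and Adam8 by 1.07 (limma adjusted p = 0.695 for each).

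**Figure D1:**
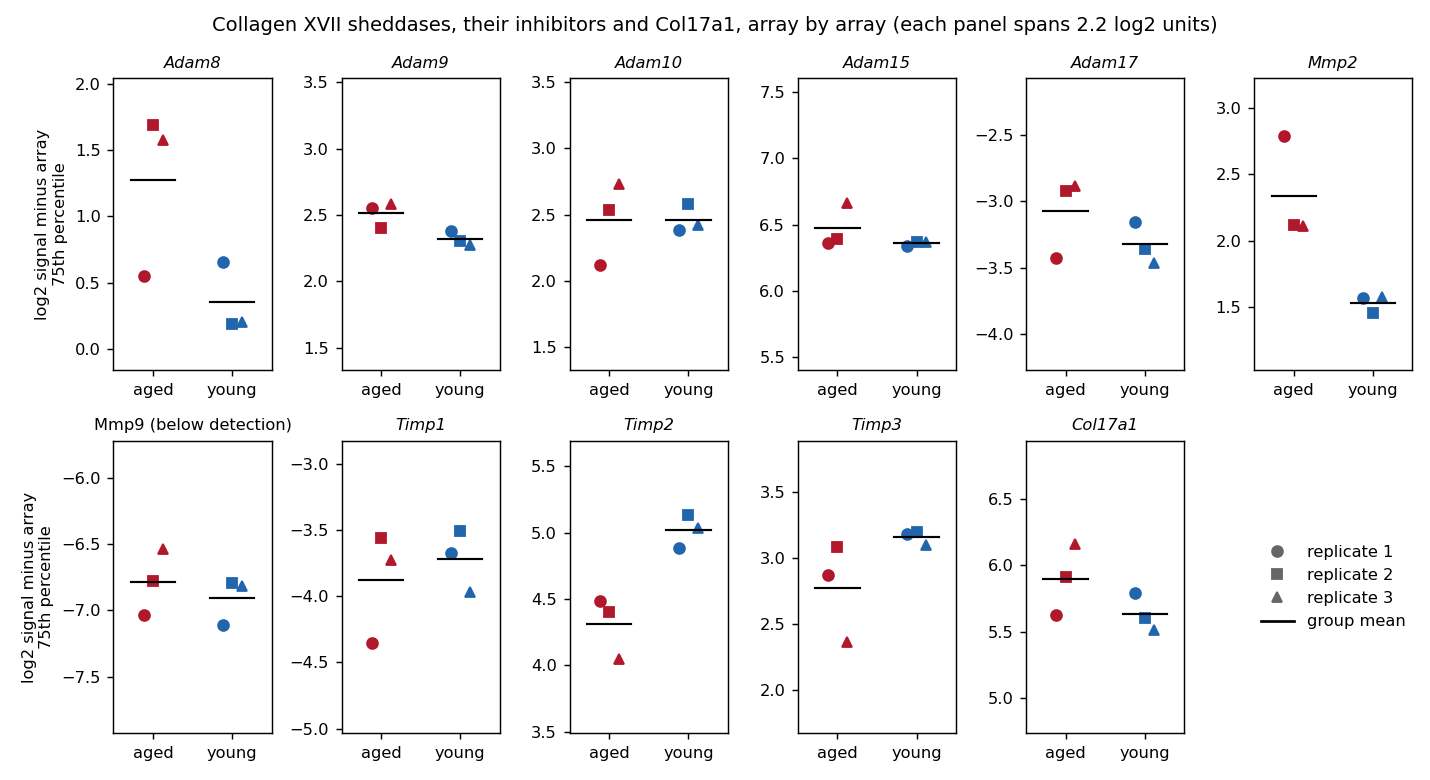
Signal of the brightest probe of each of the 10 genes and of Col17a1 on every array, as log2 signal relative to the array's 75th percentile; each panel spans the same number of log2 units, marks are replicates and lines are group means (n = 3 arrays each). The 3 aged marks lie above the young marks for Mmp2 and Adam9 and below them for Timp2 and Timp3, while Mmp9 was detected on no array.

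Among the membrane-bound sheddases, Adam9 encodes a widely expressed metalloproteinase disintegrin. Its signal was 2.55, 2.40 and 2.59 in aged replicates 1 to 3, against 2.38, 2.30 and 2.27 in young replicates 1 to 3. The aged values all lay above the young ones, although the lowest aged and highest young values were close. The difference was 0.20 ± 0.11 log2 units (SE, n = 3 arrays per group, 95% interval -0.071 to 0.46, limma adjusted p = 0.383). In these whole-tissue samples, a difference in the number of cells of a type and a difference in RNA per cell cannot be told apart.

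Adam10, which encodes the main constitutive sheddase of Notch receptors and E-cadherin, had values of 2.12, 2.54 and 2.73 in aged and 2.38, 2.58 and 2.42 in young epidermis. The young values lay within the aged range, and the aged arrays spread more widely (SD 0.31 aged and 0.11 young). The difference was 0.0018 ± 0.18 (adjusted p = 0.997), with a 95% interval of -0.44 to 0.44. Its sign turned under quantile normalization (-0.079) and under normexp background correction (-0.017).

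Adam17 encodes the enzyme that releases tumour necrosis factor and most ligands of the EGF receptor. By its brighter probe it had -3.43, -2.92 and -2.88 in aged and -3.15, -3.36 and -3.47 in young epidermis. Aged replicate 1 lay among the young arrays and the other two aged arrays above them. The difference was 0.25 ± 0.19 (95% interval -0.21 to 0.70, limma adjusted p = 0.504). It was 0.42 without aged replicate 1 (adjusted p = 0.162) and 0.15 without aged replicate 3 (adjusted p = 0.724).

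The second Adam17 probe gave a larger difference, close to the limit of detection. It had -3.68, -4.16 and -3.39 in aged epidermis, against -4.42, -4.20 and -4.92 in young epidermis. The groups did not overlap, and young replicate 3 was not well above background. In a fit of all 29506 tested probes this difference was 0.77 ± 0.27 (adjusted p = 0.233), so the probes shared a direction but not a size, and the mean of both gave 0.51 ± 0.18 (adjusted p = 0.239).

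Adam15, which encodes a membrane-bound metalloproteinase disintegrin of epithelial and endothelial cells, was among the steadiest of these genes. It had 6.36, 6.39 and 6.67 in aged and 6.34, 6.37 and 6.37 in young epidermis. Aged replicate 3 was the single array that stood apart. The difference was 0.11 ± 0.12 (95% interval -0.19 to 0.42, adjusted p = 0.652), and 0.018 without that array.

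Adam8, first known as a protease of myeloid cells, differed most among the 5 ADAM genes described here. It had 0.55, 1.69 and 1.57 in aged epidermis, against 0.66, 0.19 and 0.20 in young epidermis. Aged replicates 2 and 3, of 25 months, were high, whereas aged replicate 1, of 22 months, lay below young replicate 1. Aged replicate 1 was also the only aged array with the Y-linked transcripts, so the 2 traits cannot be told apart. The difference was 0.92 ± 0.33 (1.89-fold, 95% interval 0.12 to 1.73, limma adjusted p = 0.236). Without aged replicate 1 it was 1.28 ± 0.19 (adjusted p = 0.0235), past the threshold that 5.72% of tested genes passed in that fit. Without replicate 1 of both groups it was 1.44 ± 0.12 (adjusted p = 0.0332), where 1.52% passed. Leaving out any other single array gave 0.71 to 1.08, with limma adjusted p between 0.257 and 0.545.

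Markers of macrophages and granulocytes did not share one pattern on these arrays. The summed signal of its 9 measured markers was 162.8, 422.9 and 374.4 times the 75th percentile on aged replicates 1 to 3, against 211.2 to 240.9 on young arrays. Csf3r, with 7.17, 7.44 and 7.59 in aged and 7.51 to 7.71 in young epidermis, made the largest single part of the sum on every array. The higher sums of aged replicates 2 and 3 lay mostly in S100a8 and S100a9, calprotectin genes that keratinocytes also express. S100a8 had -1.82, 6.48 and 5.89 in aged and 1.50 to 2.00 in young epidermis. Like Adam8 it was high on aged replicates 2 and 3. On aged replicate 1 S100a8 lay below every young array, whereas Adam8 lay within the young range. Among the other detected markers, Itgam had 3.86, 3.55 and 3.53 in aged and 3.87 to 4.01 in young epidermis, and Csf1r, Csf3r and Cd68 differed by -0.66, -0.22 and 0.62 log2 units. Lyz2 and Adgre1 of this list were below detection on every array, and the list had 6 of 9 markers detected on all 6 arrays. The part of these cells in the Adam8 values was not tested.

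Of the gelatinases, which degrade denatured and basement membrane collagen, Mmp2 was detected on every array and Mmp9 on none. Mmp2 had 2.79, 2.12 and 2.11 in aged epidermis, against 1.57, 1.46 and 1.58 in young epidermis. All aged values lay above all young values, with aged replicate 1 highest. The difference was 0.81 ± 0.21 (1.75-fold, 95% interval 0.30 to 1.31, limma adjusted p = 0.167). Without aged replicate 1 it was smaller and more even, 0.58 ± 0.12 (adjusted p = 0.0549).

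Markers of fibroblasts, a known source of Mmp2, moved in different directions on these arrays. Their summed signal was 25.3, 14.7 and 9.58 times the 75th percentile on aged replicates 1 to 3, against 8.64 to 12.2 on young arrays. The high sum of aged replicate 1 came mainly from Dcn, with 4.34, 1.92 and 1.19 in aged and 1.95 to 2.84 in young epidermis. Col1a1 had -4.34 to -4.56 in aged and -1.31 to -1.87 in young epidermis, lower in the aged samples, and Pdgfra, Lum and Dpt were detected on no array. Of the 10 fibroblast markers 5 were detected on all 6 arrays. Their part in the Mmp2 values was not tested.

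Mmp9 was read by 1 probe on 10 spots per array, and its averaged signal was -7.03, -6.78 and -6.54 in aged and -7.11, -6.79 and -6.82 in young epidermis. It was well above background on 0 of 6 arrays, so no fold is given.

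**Figure D2:**
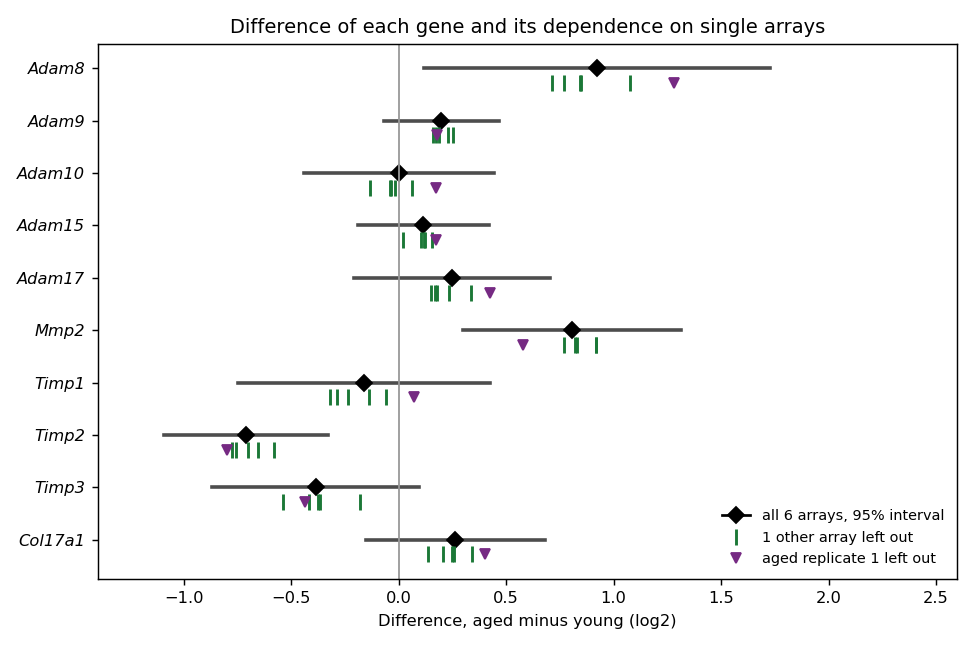
Difference of each tested gene and of Col17a1, aged minus young, in log2 units, with the limma 95% interval (diamond and bar, n = 3 arrays per group) and the values after leaving out each array (marks under the bar). The intervals of Adam8, Mmp2 and Timp2 do not include 0 before adjustment, and leaving out aged replicate 1 moves Adam8 to 1.28 and Mmp2 to 0.58.

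Among the inhibitors, Timp2 was lower in aged epidermis by both of its probes. TIMP2 inhibits MMP2 and, bound to MMP14 at the cell surface, also takes part in activating its proenzyme. The brighter probe had 4.48, 4.40 and 4.05 in aged epidermis, against 4.89, 5.14 and 5.04 in young epidermis. Every aged value lay below every young one. The difference was -0.71 ± 0.16 (0.611-fold, 95% interval -1.09 to -0.33, limma adjusted p = 0.139), and Timp2 had rank 335 by p among the 14134 tested genes. Leaving out 1 array at a time gave -0.58 to -0.80.

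The second Timp2 probe had 0.86, 1.07 and 1.62 in aged epidermis, against 2.00, 2.00 and 1.85 in young epidermis. These groups did not overlap either, though aged replicate 1, highest of the aged arrays by the brighter probe, was lowest by this one. The difference was -0.76 ± 0.21 (adjusted p = 0.187 in the fit of all probes). The mean of both probes differed by -0.74 ± 0.11 (adjusted p = 0.100).

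**Figure D3:**
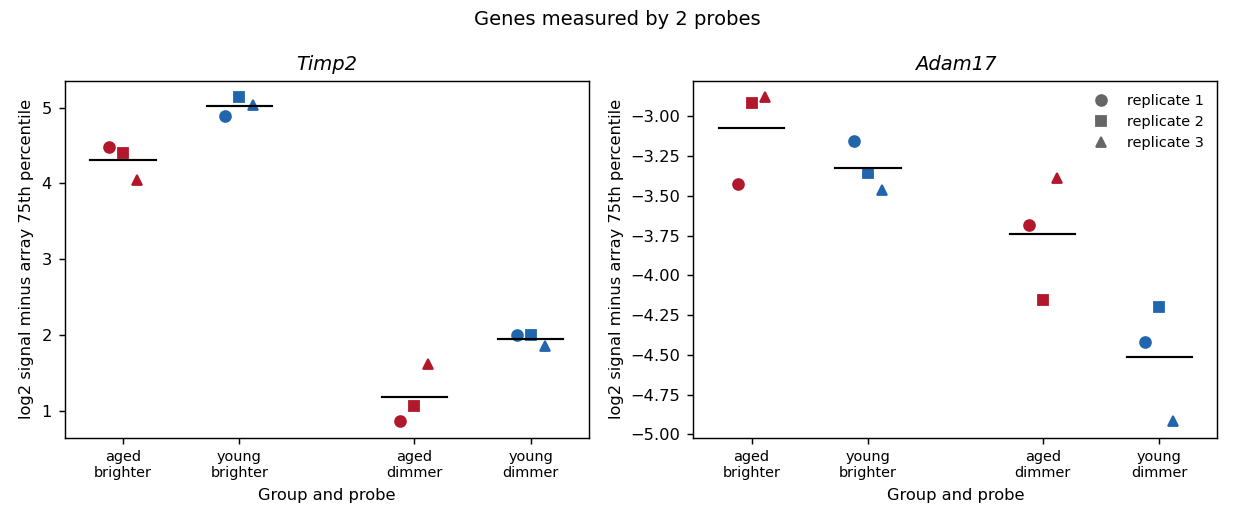
Timp2 and Adam17, each measured by a brighter and a dimmer probe, as log2 signal relative to the array's 75th percentile; marks are replicates and lines are group means (n = 3 arrays each). Both Timp2 probes have all aged marks below the young marks, while for Adam17 the groups overlap by the brighter probe and not by the dimmer one.

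Timp3, whose protein stays bound to the extracellular matrix and inhibits ADAM17, had 2.87, 3.08 and 2.36 in aged epidermis, against 3.18, 3.20 and 3.10 in young epidermis. The aged values lay below the young ones, by a narrow margin for aged replicate 2. The difference was -0.39 ± 0.20 (0.765-fold, 95% interval -0.87 to 0.096, limma adjusted p = 0.351). It was -0.18 without aged replicate 3, the array with the lowest value. That array also had the lowest summed signal of 9 hair shaft and inner root sheath markers, which was 755.2, 143.5 and 21.2 times the 75th percentile on aged replicates 1 to 3 and 916.2 to 1435 on young arrays. The part of hair follicle cells in the Timp2 and Timp3 values was not tested.

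Timp1, an inducible inhibitor of many matrix metalloproteinases and of ADAM10, lay near the limit of detection on all arrays. It had -4.35, -3.56 and -3.73 in aged and -3.67, -3.51 and -3.97 in young epidermis. The groups overlapped, with aged replicate 1 lowest. The difference was -0.16 ± 0.24 (95% interval -0.75 to 0.42, adjusted p = 0.749), and it was 0.072 without aged replicate 1. All 3 inhibitors thus had a negative difference with all arrays, but the sign of Timp1 turned under normexp background correction (0.013).

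The promoters of the inhibitors are shown because Timp2 and Timp3 were both lower without overlap and Timp1 was not. The windows run from 250 bases before to 50 after the transcription start and come from RefSeq on GRCm38.p6, a later build than the mm9 build of the array files. RefSeq windows were listed for 7 of the 10 genes. Capitals mark GC boxes (GGGCGG on either strand), and TATA boxes (TATAAA) and AP-1 sites (TGAGTCA or TGACTCA) were also searched on both strands.
Timp2, chr11:118355362-118355661, minus strand: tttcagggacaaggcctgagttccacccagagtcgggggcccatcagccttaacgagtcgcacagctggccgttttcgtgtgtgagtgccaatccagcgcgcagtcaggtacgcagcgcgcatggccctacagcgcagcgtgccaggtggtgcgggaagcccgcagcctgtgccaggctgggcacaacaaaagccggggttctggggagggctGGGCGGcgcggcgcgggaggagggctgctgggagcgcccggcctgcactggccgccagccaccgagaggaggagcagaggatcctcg
Timp3, chr10:86300162-86300461, plus strand: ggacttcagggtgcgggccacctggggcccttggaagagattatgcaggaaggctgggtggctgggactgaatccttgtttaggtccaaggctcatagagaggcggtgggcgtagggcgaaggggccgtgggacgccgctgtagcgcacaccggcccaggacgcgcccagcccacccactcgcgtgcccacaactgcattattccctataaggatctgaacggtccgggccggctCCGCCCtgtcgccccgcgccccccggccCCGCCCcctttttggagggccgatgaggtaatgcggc
Timp1, chrX:20869916-20870215, plus strand: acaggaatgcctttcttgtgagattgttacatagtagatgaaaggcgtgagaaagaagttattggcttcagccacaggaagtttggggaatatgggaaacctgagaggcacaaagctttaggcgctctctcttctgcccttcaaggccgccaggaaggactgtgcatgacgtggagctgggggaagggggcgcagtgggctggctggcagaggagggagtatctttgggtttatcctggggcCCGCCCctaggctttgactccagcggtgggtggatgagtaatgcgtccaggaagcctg
The Timp2 window held 1 GC box and the Timp3 window 2, against 1 in the Timp1 window. No exact match to the TATA box or AP-1 sequences was found in these 3 windows. Variants of these sequences were not searched, so such sites may be present. Among all 32851 RefSeq windows of this length, 35.7% held a GC box, 13.6% a TATA box and 5.2% an AP-1 match. The share of G and C was 68.7% for Timp2, 67.0% for Timp3 and 55.0% for Timp1. These matches describe the letters only.

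Col17a1, the target of these proteases, had 5.62, 5.91 and 6.16 in aged and 5.79, 5.60 and 5.52 in young epidermis. Aged replicate 1 lay within the young range and the other aged arrays above it. The difference was 0.26 ± 0.17 (95% interval -0.15 to 0.68, limma adjusted p = 0.441). It was 0.40 without aged replicate 1 (adjusted p = 0.198) and 0.13 without aged replicate 3 (adjusted p = 0.688).

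No gene of the related families passed the adjusted threshold, and the largest difference among them was in the remaining TIMP. Timp4 had -3.28, -4.17 and -5.78 in aged epidermis, against -1.70, -3.05 and -1.31 in young epidermis. The groups did not overlap, and the gene was well above background on 2 of 3 aged and 3 of 3 young arrays. Its difference was -2.39 ± 0.73 (adjusted p = 0.203), uncertain in size since aged replicate 3 lay below detection. The other tested inhibitor, Sfrp1, a Wnt antagonist that also inhibits ADAM10, differed by -0.13 ± 0.35 (adjusted p = 0.873). Reck and A2m did not pass the detection filter.

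Of 4 other catalytic ADAM genes chosen for this list, which is not the whole family, 3 were tested. Adam19, which encodes a protease that sheds neuregulin, had -1.18, -1.36 and -1.29 in aged epidermis, against -0.74, -0.53 and -0.57 in young epidermis. It was lower on every aged array, by -0.66 ± 0.12 (limma adjusted p = 0.114). Adam12 and Adam33 differed by -0.052 ± 0.50 and 0.051 ± 0.29. An unadjusted p under 0.05 was found for 1 of the 3, Adam19, against 17.7% of all tested genes, or 6.3% on the lower side.

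Of 19 other matrix metalloproteinase genes 7 passed the detection filter, 4 with a positive and 3 with a negative difference and a median of 0.14. Over all 14134 tested genes 63.6% had a positive difference. The membrane-type enzyme gene Mmp15 had -1.57, -1.48 and -1.45 in aged epidermis, against -1.76, -2.03 and -1.77 in young epidermis. Its groups did not overlap, and it differed by 0.35 ± 0.12 (adjusted p = 0.231). Mmp14, which encodes the activator of proMMP2, had -0.49, -0.56 and -1.07 in aged and values between -0.94 and -1.26 in young epidermis. Aged replicate 3 lay within the young range, and the difference was 0.36 ± 0.19 (adjusted p = 0.370). Mmp11 and the stromelysin gene Mmp3 differed by -0.60 ± 0.38 and 0.79 ± 0.72.

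Genes that mature or carry ADAM10 and ADAM17 had 7 of 11 tested members with a positive difference, again the 63.6% found over all tested genes, and a median of 0.26. An unadjusted p under 0.05 was found for 2 of the 11, near the 17.7% of all tested genes. Tspan17, a tetraspanin partner of ADAM10, had 4.55, 4.28 and 4.66 in aged epidermis, against 3.91, 3.95 and 4.07 in young epidermis. All aged values were higher, by 0.52 ± 0.14 (limma adjusted p = 0.175). Furin, the convertase that removes the prodomain of ADAM proteases, had 3.15, 3.35 and 3.34 in aged epidermis, against 2.89, 2.92 and 3.05 in young epidermis. It differed by 0.33 ± 0.12 (adjusted p = 0.237), again without overlap. The tetraspanin genes Tspan5 and Tspan33 differed by 0.26 ± 0.11 and 0.61 ± 0.25 (adjusted p = 0.295 and 0.277). Tspan15 had the lowest difference of the list, -1.13 ± 0.75 (adjusted p = 0.452). Its signal was well above background on 2 of 3 aged and 3 of 3 young arrays.

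Plasmin and neutrophil elastase can also cleave collagen XVII. Plau, which encodes the urokinase activator of plasminogen, had -0.22, 0.11 and 0.093 in aged epidermis, against -1.31, -0.66 and -0.67 in young epidermis. All aged values were higher, by 0.87 ± 0.22 (limma adjusted p = 0.157). The tissue activator gene Plat and the elastase gene Elane differed by -0.50 ± 0.31 and 0.13 ± 0.13 (adjusted p = 0.420 and 0.620). Plg and Gzmb did not pass the detection filter.

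Other substrates of ADAM10 or ADAM17 had 14 of 22 tested members with a positive difference, the same 63.6% as over all tested genes, and a median of 0.13. An unadjusted p under 0.05 was found for 1 of the 22, against 17.7% of all tested genes. That gene, Tgfa, an EGF receptor ligand, had -2.22, -2.60 and -2.86 in aged epidermis, against -1.65, -2.08 and -2.13 in young epidermis. It was lower without overlap, by -0.61 ± 0.22 (limma adjusted p = 0.232). The receptor genes Tnfrsf1a, Notch1 and Il6ra differed by 0.41 ± 0.17, -0.50 ± 0.23 and 0.35 ± 0.19 (adjusted p between 0.285 and 0.365).

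**Figure D4:**
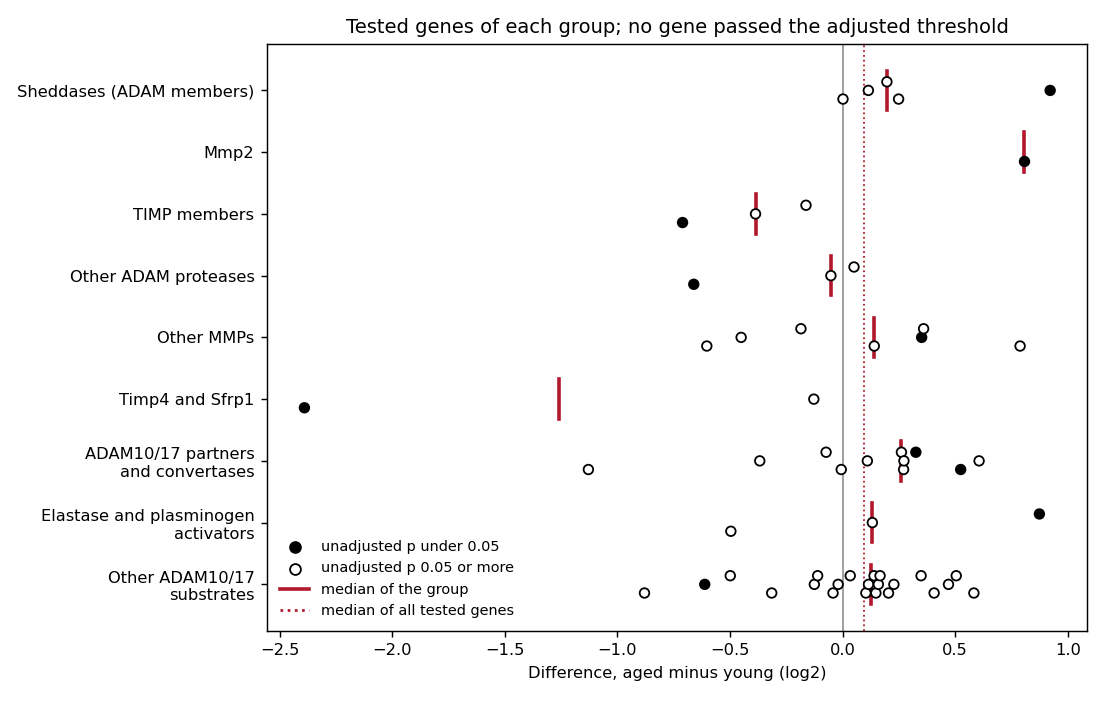
Difference, aged minus young, in log2 units, of every tested gene in each group of related genes; filled circles have an unadjusted limma p under 0.05, and red lines are medians. Timp4, Timp2 and Adam19 lie farthest left among the filled circles and Adam8, Plau and Mmp2 farthest right, and no gene shown passed after adjustment.

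Adam8 and Mmp2 had the widest ranges over the 6 arrays among these genes, 1.50 and 1.33 log2 units, and their patterns differed. The nearest patterns were sought by the root mean square distance of values centred on each gene's mean, among 13075 other genes well above background on all 6 arrays. For Adam8 these were Ifitm3, an interferon-induced membrane protein gene (distance 0.11), the drug efflux transporter gene Abcg2 (0.14) and the complement protease gene C1ra (0.15). For Mmp2 they were Tmsb15b1 (0.057), the apoptosis repressor gene Nol3 (0.077) and the glycolytic aldolase gene Aldoc (0.092). Adam8 and its neighbours were high on aged replicates 2 and 3, while Mmp2 and its neighbours were highest on aged replicate 1. The neighbours were chosen for this likeness, so the shared arrays are not a separate result.

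**Figure D5:**
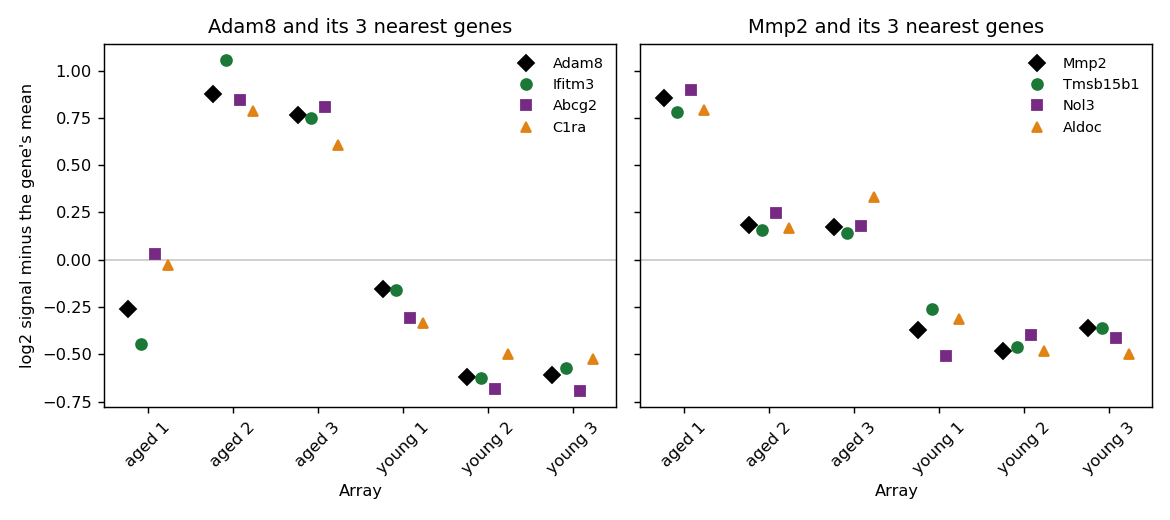
Adam8 and Mmp2, each with the 3 genes of nearest pattern, as log2 signal minus each gene's own mean over the 6 arrays; each mark is 1 array. Adam8 and its neighbours, chosen for their likeness to it, have their highest marks on aged replicates 2 and 3. Mmp2 and its neighbours, chosen in the same way, have theirs on aged replicate 1.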

How the data were processed

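RNA of 3 aged and 3 young tail epidermis samples was hybridised to 1-colour arrays on 1 slide in 1 scan. Per the file headers, the processed signal deposited is the intensity of a spot from Feature Extraction 11.5.1.1, background-subtracted and detrended within the array; raw median intensity values, also deposited, served for normexp in place of the mean signal. The authors' deposited table of log2 values lists 33870 probes and matched the scanner log2 values centred on each probe's median (r at least 0.9999 per array, across probes). Its column medians were -0.0087, 0.016 and 0.071 for aged and -0.013, -0.021 and -0.021 for young replicates 1 to 3.

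Each signal was taken as log2 minus the array's 75th percentile. Control spots and 116 to 170 spots per array marked as outliers were dropped, and repeated spots were averaged. RefSeq accessions named 28331 of 55681 probes through a GRCm38.p6 table. Probes well above background on at least 3 of 6 arrays were tested (29506), a gene by its brightest probe, which gave 14134 genes among 25066 features. Aged and young were compared with limma 3.58.1 in R 4.3.3 (two-sided lmFit and eBayes without covariates, with Benjamini-Hochberg adjustment over all features), after a test on simulated data. The 3 arrays per group limit the precision.

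The genes and lists were chosen with earlier results of these data known. Named are all 10 genes and Col17a1, up to 4 genes of each list by unadjusted p, and the 3 nearest patterns of the 2 widest-ranging genes. Ddx3y, Eif2s3y and markers were named as checks, and Tspan15 as the lowest difference of its list. Across features, the deviations of aged and young samples with the same number correlated with r of 0.414, 0.259 and 0.102 over 25064 features. The labels name nothing shared, so the numbers were taken as pairs, from the data only, in the replicate block alternative. In the data, replicate 1 of both groups, with r of 0.414, shared the Y-linked transcripts Ddx3y and Eif2s3y. The main p-values do not use this pairing. Samples with different numbers were not compared in this way, so these correlations do not establish that the samples are paired. Alternatives covered background correction, scaling, filters, probe averaging, array weights, blocks and left-out arrays.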

Additional observations from a re-analysis of the deposited data

How the results depend on the processing

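Over 17 alternatives, Adam8, Adam9, Adam15, Adam17, Mmp2 and Col17a1 stayed higher and Timp2 and Timp3 lower in aged epidermis. Adam8 ranged from 0.71 to 1.44 and Mmp2 from 0.58 to 0.92 log2 units. Timp2 ranged from -0.86 to -0.58 and Timp3 from -0.54 to -0.18. Adam10 turned to -0.017 with normexp and -0.079 with quantile normalization, and ranged from -0.13 to 0.17 when single arrays were left out. Timp1 turned to 0.013 with normexp, 0.072 with array weights, 0.087 with the slide row as a block and 0.095 without replicate 1 of both groups, and ranged from -0.32 to 0.072 when single arrays were left out.

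The 9 tested genes had 0 past the threshold with all arrays and 3 with array weights: Adam8, Mmp2 and Timp2 (adjusted p = 0.0311, 0.0440 and 0.0312). These weights were 0.333 for aged replicate 1 and 0.610 to 2.32 for the others, and 1108 of all genes passed. Adam8 alone passed without aged replicate 1 and without replicate 1 of both groups (1 gene in each), and 0 passed without any other array. Both fits lack the only sample of 22 months, and without aged replicate 1 the Y-linked transcripts remain on 1 young array alone.

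Over all tested genes the count of 11 was 7 with quantile normalization, 21 with median scaling, 3 with the filter for all 6 arrays, 1 with no filter, 0 with the replicate block, 0 with the slide row as a block and 215 without replicate 1 of both groups; left-out arrays gave 0 to 809, and every array except aged replicate 1 gave 0 (1321 to 2411 at unadjusted p under 0.05). The split of higher and lower calls was 6 and 5, against 11 and 4 with normexp and 15 and 6 with median scaling. With the replicate block (2711 genes at an unadjusted p under 0.05) the 9 genes had 0 past the adjusted threshold, as without it. Since 0 of all tested genes passed with that block, the unchanged count is uninformative. Mmp2 and Timp2 had adjusted p of 0.176 and 0.175, and Adam8 moved to an unadjusted p of 0.0666, against 0.0308 without the block. The slide row block (858 genes at an unadjusted p under 0.05) rests on young replicate 3, the only young array in the row of the aged ones. Signal near background limits Timp1, Adam17, Timp4 and Tspan15.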
